A study of Mus musculus with 6 samples.

Results

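Accessible chromatin at the promoters of long non-coding RNA (lncRNA) genes was examined in regulatory T cells (Tregs) with and without the transcription factor CREB. A member was a peak that overlapped 1 kb on each side of an annotated lncRNA start site and did not touch 2 kb on each side of any protein-coding start site. Start sites were taken from GENCODE vM21, basic set, for genes of the types lincRNA, antisense and processed_transcript. No signal value entered this choice. Of 100771 peaks in the list of the control group, 2029 met the rule, and of 94499 peaks in the list of the CREB-deficient group 1882 did. Overlapping peaks of both lists were joined into 104845 regions, of which 2086 were lncRNA promoters.

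The cells were splenic Tregs of mice 6 to 12 weeks old. Control mice were CREBfl/fl, which the labels call WT, and CREB-deficient mice were Foxp3creCREBfl/fl, with samples titled Foxp3_KO, here called KO. Both groups carried the floxed Creb1 allele. Only the KO group carried Cre, expressed from the Foxp3 locus, so that deletion was directed to Foxp3-expressing cells. Loss of CREB and presence of Cre therefore cannot be told apart. By the labels each group had 3 libraries, and by the methods sequencing was in duplicate, but each group is held as 1 peak list, so no spread between mice could be had and no p-value is given. Intervals cover counting error alone, and a change in each cell and a change in the mix of cells cannot be told apart.

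Long non-coding RNAs are transcripts without a long open reading frame. Some act in the nucleus, as scaffolds of nuclear bodies or as silencers of a chromosome or an imprinted cluster. Others are precursors of microRNAs or small nucleolar RNAs (snoRNAs), and for many the function is not known. CREB binds the cAMP response element (CRE), a palindrome, and with lower affinity its 5-base half-site. ATAC-seq counts cuts of a transposase and thereby marks chromatin that is open to proteins, whether or not the gene is transcribed.

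The sequences below carry the motif comparison of the lncRNA promoters. They were read from GRCm38 and are printed 5′ to 3′ on the strand of the lncRNA gene. The first set holds the promoters called different between the groups by the rule given further on: 3 that were lower in Foxp3creCREBfl/fl Tregs (Gm41392, Gm16120 and Gm45666) and 2 that were higher (AL805899.1 and A330074K22Rik). Capitals mark the CRE half-site TGACG, or CGTCA where it lies on the other strand. In A330074K22Rik, which lacked a half-site, capitals mark the AP-1 word TGANTCA. Each stretch reaches up to 100 bases on both sides of the word, within the region.
Gm41392 (+ strand, chr15:96497718-96497899): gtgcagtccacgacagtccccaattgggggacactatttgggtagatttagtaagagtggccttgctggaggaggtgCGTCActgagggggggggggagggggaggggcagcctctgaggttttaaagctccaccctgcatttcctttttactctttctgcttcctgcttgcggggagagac
Gm16120 (+ strand, chr5:140207416-140207561): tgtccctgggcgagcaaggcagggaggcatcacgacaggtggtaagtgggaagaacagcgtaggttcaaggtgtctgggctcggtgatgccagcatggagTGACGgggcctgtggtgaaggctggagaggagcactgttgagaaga
Gm45666 (+ strand, chr8:91160117-91160321): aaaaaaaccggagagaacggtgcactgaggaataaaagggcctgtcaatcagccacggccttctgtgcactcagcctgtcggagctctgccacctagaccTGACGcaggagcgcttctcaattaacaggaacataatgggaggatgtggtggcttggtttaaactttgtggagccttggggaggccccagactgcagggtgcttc
AL805899.1 (- strand, chr4:88937921-88938125): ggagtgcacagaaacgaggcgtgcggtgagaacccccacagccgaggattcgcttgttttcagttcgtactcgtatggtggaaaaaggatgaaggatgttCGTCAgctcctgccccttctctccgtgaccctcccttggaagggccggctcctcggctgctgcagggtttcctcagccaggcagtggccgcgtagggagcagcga
A330074K22Rik (- strand, chr8:120228203-120228339): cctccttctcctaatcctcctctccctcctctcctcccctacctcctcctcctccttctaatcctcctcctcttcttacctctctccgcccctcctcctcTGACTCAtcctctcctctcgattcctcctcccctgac

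The second set holds 48-base windows around a full CRE, in capitals, in the most accessible members that had one and in promoters of well-known lncRNAs. None of these differed by 2-fold or more between the groups.
Gm6410 (+ strand, chr8:4678368-4678415): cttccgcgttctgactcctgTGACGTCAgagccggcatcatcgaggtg
Gm44686 (+ strand, chr7:73537871-73537918): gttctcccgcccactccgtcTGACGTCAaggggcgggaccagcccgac
Gm2885 (- strand, chr17:6828404-6828451): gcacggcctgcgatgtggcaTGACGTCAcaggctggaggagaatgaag
Gm26887 (- strand, chr8:84197724-84197771): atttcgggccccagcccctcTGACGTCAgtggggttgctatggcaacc
6720427I07Rik (- strand, chr13:48545877-48545924): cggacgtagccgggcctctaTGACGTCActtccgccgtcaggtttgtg
Gm14321 (+ strand, chr2:167778022-167778069): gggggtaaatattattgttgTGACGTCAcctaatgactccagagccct
Frmd8os (+ strand, chr19:5845996-5846043): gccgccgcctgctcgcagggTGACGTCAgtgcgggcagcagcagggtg
Snhg15 (- strand, chr11:6528821-6528868): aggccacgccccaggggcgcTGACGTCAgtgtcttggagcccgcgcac
Snhg20 (+ strand, chr11:117076385-117076432): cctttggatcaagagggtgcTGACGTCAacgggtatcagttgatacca
Pvt1 (+ strand, chr15:62037968-62038015): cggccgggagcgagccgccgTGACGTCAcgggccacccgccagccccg
Frmd8os shares its start region with Neat1, the scaffold RNA of paraspeckles, which is transcribed in the other direction. Snhg15 and Snhg20 host snoRNAs. Pvt1 is the lncRNA beside the oncogene Myc.

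Treg genes were accessible in both lists. All 6 genes of the Treg marker list had a peak within 1 kb of a start site in both lists, namely Foxp3, Il2ra, Ctla4, Ikzf2, Cd4 and Cd3e. Of these, Cd4 and Cd3e also mark conventional CD4 T cells and do not set Tregs apart. In each list this also held for 1 of 4 myeloid markers (Itgam, not Lyz2, Csf1r or Spi1), 2 of 4 CD8 and NK markers and 2 of 3 erythroid markers. The part of other cells in the results was not tested. The summit pileup, the number of fragments stacked at the highest point of a peak, had a genome background of 8.44 in the control list and 5.09 in the CREB-deficient list, a ratio of 1.66. For ratios between the lists, each pileup was therefore first divided by the background of its own list. Pileup thresholds, bins and medians are given undivided, so a given pileup does not stand for the same strength in both lists.

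Most lncRNA genes had no member region in Tregs. Of 9051 annotated lncRNA genes, 1529 (16.9%) had at least 1 member region. This was the case for 914 of 5305 lincRNA genes, 452 of 2958 antisense genes and 163 of 788 processed_transcript genes. The 9051 also count genes close to a protein-coding start, whose peaks the rule leaves out however accessible they are. Of the 1529 genes, 1355 had peaks of both lists among their member regions, 136 of the control list only and 38 of the CREB-deficient list only. These are counts of genes, which can hold several regions. Counted by peak, 15.2% of control and 4.89% of CREB-deficient peaks at lncRNA promoters had no counterpart. Over all peaks, whatever their position, these shares were 16.4% of the control list and 6.61% of the CREB-deficient list. One region was found at 1076 genes, and no gene had more than 5. Among the genes with 5 was Dleu2, the host of the miR-15a and miR-16-1 precursors.

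By gene type, 1248 regions lay at a lincRNA, 602 at an antisense RNA and 236 at a processed_transcript. Outside protein-coding genes lay 71.5% of members, and 25.8% lay in a protein-coding gene on the other strand. The median distance to the closest protein-coding start site was 28.9 kb. The highest summit lay within 250 bp of the lncRNA start in 818 members (39.2%), and 1118 (53.6%) had it upstream of the start. A further annotated start of another gene type was within 1 kb in 131 members (6.28%).

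**Figure D1:**
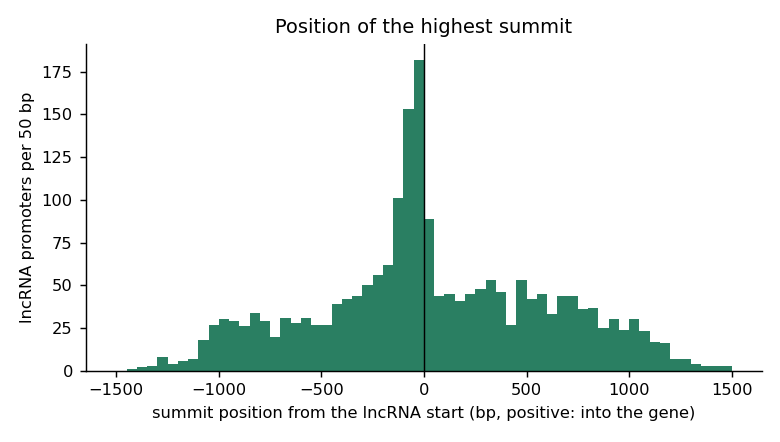
Number of lncRNA promoters by position of their highest summit relative to the lncRNA start site, in 50 bp bins with positive values into the gene. The plot covers 2081 members within 1500 bp, and the counts are highest in the bins just upstream of the start.

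LncRNA promoters stood between protein-coding promoters and distal regions in size, strength and base composition. Protein-coding promoters were the 19580 regions within 1 kb of a protein-coding start, and distal regions the 78520 beyond 2 kb of both kinds of start. The median length was 329 bp for lncRNA promoters, 643 bp for protein-coding promoters and 218 bp for distal regions. The median control pileup was 121, 307 and 74 in the same order, and the median CREB-deficient pileup was 90, 242 and 56. CpG-rich sequence, with an observed over expected CpG ratio of at least 0.6 and at least 50% GC, made up 14.8% of lncRNA promoters, 58.8% of protein-coding promoters and 2.81% of distal regions. CpG-rich lncRNA promoters had a median control pileup of 252, against 111 for the others. The members differed widely among themselves, with the middle 50% of control pileups between 53 and 295.

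The lncRNA promoters with the highest pileups were alike in both groups. Gm26917 and AY036118, neighbours on chromosome 17, had the highest pileups, but Gm26917 was not compared because its pileup could not be recovered within tolerance. Whether reads from repeated sequence add to the pileups of these neighbours was not tested. AY036118 had pileups of 2955 and 1853 in the control and CREB-deficient lists. Gm6410 had 1914 and 1160, and Mir22hg, the host of miR-22, had 1747 and 1208. The antisense Gm44686 lay within Chd2, which encodes a chromatin remodeller, and had 1591 and 1052. At 1810026B05Rik, upstream of the same gene, the pileups were 1549 and 1085. Relative to the centre of all shared regions, the log2 ratios of these 5 compared promoters lay between -0.14 for Gm6410 and 0.07 for 1810026B05Rik.

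As a whole, the shared lncRNA promoters hardly moved. The relative log2 ratio is that of the CREB-deficient over the control pileup, each divided by its background, minus the median of 0.15 over 82004 shared regions. For the 1684 lncRNA promoters compared, its median was -0.03, with quartiles of -0.18 and 0.12 and an SD of 0.29 over regions. Below 0 were 939 (55.8%). The median was 0.02 for 16871 protein-coding promoters, of which 45.3% were below 0, and -0.0043 for 59931 distal regions, with 51.1% below 0. The sign of these medians depends on the centring, since without subtraction of the overall median the value for lncRNA promoters was 0.12. Within the members, antisense promoters had a median of -0.05, lincRNA promoters -0.02 and processed_transcript promoters -0.03. CpG-rich members had a median of 0.03 and the others -0.05.

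Among the 1451 shared lncRNA promoters with a pileup of at least 50 in a group, the 95% interval of the ratio lay below 0 in 173 (11.9%) and above 0 in 81 (5.58%). Over all shared regions of that strength these shares were 9.73% below and 5.87% above. For protein-coding promoters they were 7.06% and 6.50%, and for distal regions 10.6% and 5.78%. The lncRNA promoters were thus nearer to distal regions than to protein-coding promoters in these shares.

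A region was called lower or higher when its ratio was at least 2-fold and at least 5 counting SDs from the centre. By this rule 3 of 1684 lncRNA promoters were lower and 2 were higher. Over all 82004 shared regions 0.117% were lower and 0.0829% were higher. The share among lncRNA promoters is near this background and rests on very few regions.

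**Figure D2:**
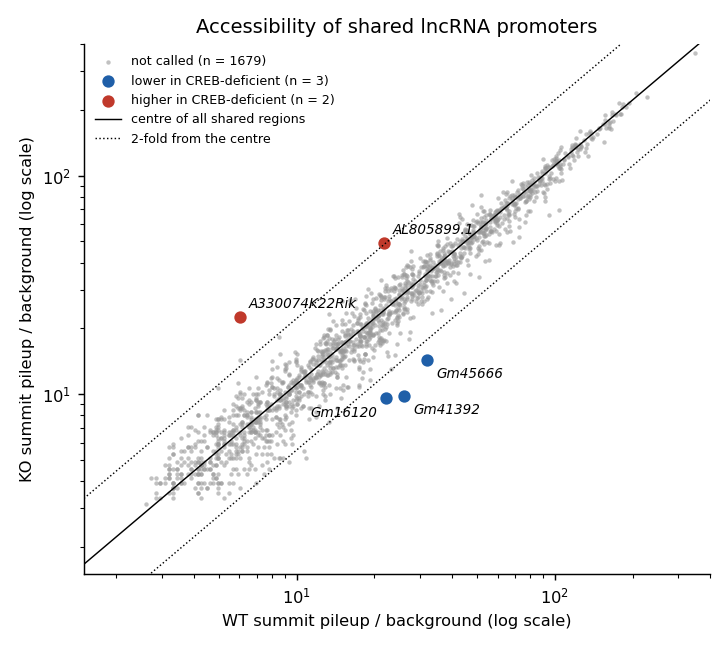
Summit pileup over background of 1684 shared lncRNA promoters in control (WT, x axis) and CREB-deficient (KO, y axis) Tregs, both on log scales, 1 point per region, with the centre of all shared regions as a solid line and 2-fold around it as dotted lines. Nearly all points follow the centre, and the 3 lower and 2 higher promoters are named.

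The promoter of the lincRNA Gm41392 (chr15:96497718-96498110) was the lowest. Its pileup was 220 in the control and 50 in the CREB-deficient list, a relative log2 ratio of -1.56 (95% interval -2.03 to -1.11). It lay 37.1 kb from the start of Scaf11, which encodes a splicing-related protein, and its summit was 1 bp from the lncRNA start. Chromosome 15, with 3692 regions compared, held 25 of the 96 lower calls of the whole genome, but also 11 of the 68 higher calls. On chromosome 1, with 5554 compared, 19 calls were lower and 12 were higher. Calls on these chromosomes thus went in both directions.

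Gm16120 (chr5:140207219-140207561), antisense within the spindle checkpoint gene Mad1l1, had pileups of 187 and 49. The relative log2 ratio was -1.35 (-1.84 to -0.89). Gm45666 (chr8:91160065-91160624) is antisense within Aktip, the gene of an AKT-interacting protein. It had 270 and 73, a ratio of -1.31 (-1.70 to -0.93). In all 3 lower promoters the control pileup was over 3 times the CREB-deficient one, more than the difference in background. All 3 contained the half-site once, and none contained a full CRE. The half-site was in 22.6% of all lncRNA promoters and in 435 of the 1684 compared. Of those compared with a control pileup from 200 upward, 261 had it and 429 did not. The higher promoter AL805899.1 also held the half-site. Of the regions called lower elsewhere, it was in 18 of 22 protein-coding promoters and 29 of 66 distal regions. The half-site lay 106 bp from the summit in Gm41392 on its upstream side, and in Gm16120 it lay 173 bp away.

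Of the higher promoters, the lincRNA A330074K22Rik (chr8:120228203-120228456) had a pileup of 51 in the control and 115 in the CREB-deficient list. The relative log2 ratio was 1.75 (1.27 to 2.26). It lay in Gse1 on the other strand, and its AP-1 word was 6 bp upstream of the lncRNA start. AL805899.1 (chr4:88937841-88938926), 58.4 kb from the interferon gene Ifne, had 184 and 249, a ratio of 1.02 (0.74 to 1.30). In both, the pileup was higher in the CREB-deficient list although its background was lower.

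Just outside the rule were 4 promoters past 2-fold with fewer counts. The antisense Gm13546 in Cytip, which encodes a cytohesin-binding protein of lymphocytes, had 92 and 26 (-1.24, -1.93 to -0.60). Gm16252 had 90 and 28 (-1.10), and Gm34574, near the ERK phosphatase gene Dusp6, had 79 and 25 (-1.08). In the other direction Gm13481 had 51 and 73 (1.10, 0.56 to 1.64). Next among the higher ratios, and under 2-fold, were promoters with a pileup of at least 50 in a group and an interval above 0. Gm47389, whose closest protein-coding start is that of Prdm1 at 257 kb, the gene of the repressor Blimp-1, had 72 and 93 (0.95). The antisense 4930520M14Rik in Sun1 had 42 and 54 (0.94, 0.33 to 1.56). Ifngas1, a lincRNA of the interferon gamma locus, had 50 and 57 (0.77, 0.20 to 1.35).

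With no fold asked, 9 lncRNA promoters (0.534%) were lower by 5 counting SDs and 3 (0.178%) were higher. Over all shared regions 0.383% and 0.129% were. This rule was added after the values were seen. The further lower promoters included strong ones, such as 4732465J04Rik with pileups of 872 and 355 (-0.72, -0.90 to -0.54). The processed_transcript 5730405O15Rik, near the deubiquitinase gene Usp9x, had 799 and 337 (-0.66). Gm15340 had 375 and 147 (-0.77), and Gm5493 had 429 and 175 (-0.71). Gm15873, antisense at the cardiac troponin gene Tnni3, had 615 and 266 (-0.63), and Gm41386 on chromosome 15 had 579 and 252 (-0.62). The additional higher one was the start region of Malat1. The half-site was present in 8 of the 9 lower and 2 of the 3 higher promoters, against 66.6% of all lower and 41.5% of all higher regions.

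**Figure D3:**
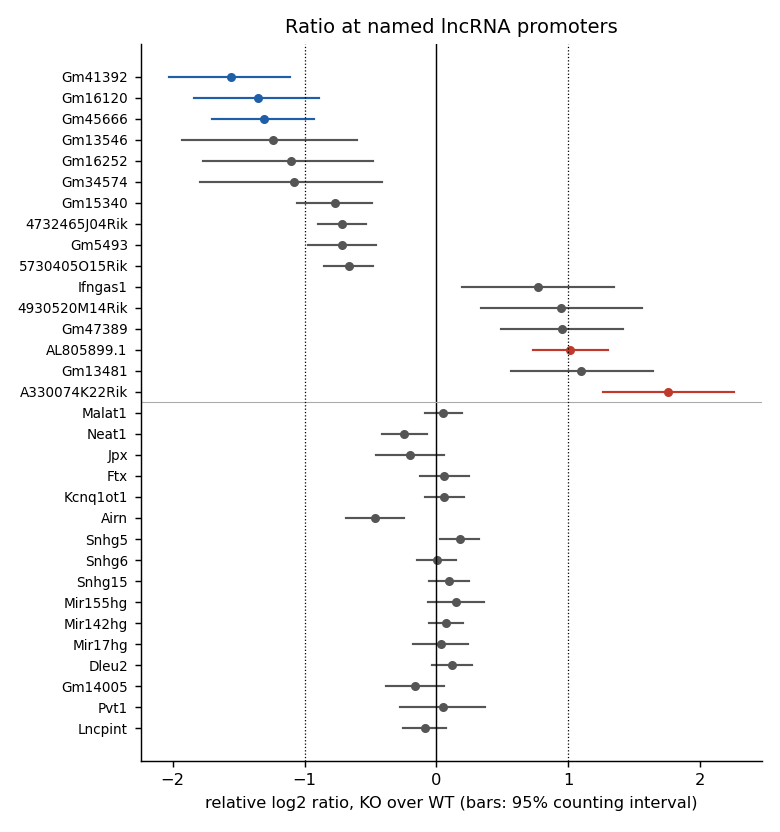
Relative log2 ratio of CREB-deficient (KO) over control (WT) pileup with its 95% counting interval at named lncRNA promoters, with called promoters in blue (lower) and red (higher) and dotted lines at 2-fold. Above the grey line are promoters far from the centre, and below it the strongest region of well-known lncRNAs, whose points lie between -0.46 for Airn and 0.18 for Snhg5.

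Well-known lncRNAs were examined in lists drawn up by role. The nuclear-body RNAs Malat1, a speckle-associated transcript, and Neat1 both had members. At the Malat1 start (chr19:5802065-5802763) the pileups were 437 and 413, a ratio of 0.50 (0.30 to 0.70). The stronger region at -907 bp from that start had 1009 and 700, a ratio of 0.05 (-0.09 to 0.19), and another at an internal start had 162 and 122 (0.17, -0.18 to 0.52). The higher ratio at Malat1 was therefore seen at 1 of its 3 regions. The region shared by Neat1 and Frmd8os had 784 and 443, a ratio of -0.24 (-0.41 to -0.07). Another Neat1 region, 819 bp inside the gene, had 182 and 121 (-0.01, -0.35 to 0.33).

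The X inactivation list had members at Xist, the RNA that coats the inactive X chromosome, at its antisense Tsix and at the activators Jpx and Ftx. All 8 regions were shared, and all 8 intervals included 0. The strongest was at Ftx, with 574 and 400 (0.06, -0.13 to 0.25). Of 7 imprinted lncRNAs, Kcnq1ot1, Airn and Nespas had members, while H19, Meg3, Rian and Mirg had no peak within 1 kb of a start. The main Airn region (chr17:12741122-12741837), from which the silencer of Igf2r is transcribed, had 518 and 251, a ratio of -0.46 (-0.69 to -0.24). At Kcnq1ot1, which silences the Cdkn1c cluster, the pileups were 922 and 643 (0.06, -0.09 to 0.21).

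The promoters of snoRNA hosts had ratios close to 0. Of 15 annotated hosts, 8 had members, and all 12 regions were shared, with ratios from -0.13 to 0.18 and a median of 0.05. Only the interval of Snhg5 (882 and 666, ratio 0.18, 0.03 to 0.32) did not include 0. Gas5, Snhg1, Snhg3, Snhg9 and Snhg10 had a peak but lay within 2 kb of a protein-coding start and were no members. Of 10 microRNA hosts, 7 had members in 16 regions, and the intervals of all 14 compared included 0. The list also held Mirt1 and Mirt2, which are no microRNA hosts and were left out of these counts after the values were seen. Mir155hg, which hosts miR-155, a microRNA that Foxp3 induces in Tregs, had 438 and 325 at its start (0.15, -0.06 to 0.36). Mir142hg, a host of a blood-cell microRNA, had 1158 and 815 (0.07, -0.06 to 0.20).

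A mixed list of other characterised lncRNAs held transcripts of immune cells and also many known from other tissues, such as Mhrt of the heart and Hotair of the Hox clusters. Of its 31 lncRNAs, 11 had members, 8 more had a peak but lay within 2 kb of a protein-coding start, and 12 had no peak within 1 kb. The list median over 17 compared regions was 0.0032, with 3 intervals below 0 and 1 above. Gm14005 is Morrbid, which represses the pro-apoptotic gene Bcl2l11. Its start region had 455 and 272 (-0.16, -0.38 to 0.06), while a region 924 bp inside the gene had 235 and 229 (0.54, 0.27 to 0.81). Lncpint, a p53-induced RNA, had 801 and 504 at its main start (-0.09, -0.25 to 0.07) and 553 and 282 at a region -594 bp from a start (-0.39, -0.60 to -0.18). Trp53cor1, or lincRNA-p21, had a weak region of 76 and 30 (-0.76, -1.42 to -0.13) and another of 41 and 36 (0.39, -0.29 to 1.07). Lockd, beside the cell cycle inhibitor gene Cdkn1b, had 719 and 434 (-0.15) and 155 and 78 (-0.41, -0.82 to -0.01). At Gm14005 the intervals of the regions given here did not overlap, whereas at Lncpint, Trp53cor1 and Lockd they did. A further Lncpint region had 146 and 113 (0.21, -0.16 to 0.58), and its interval did not overlap that of the region at -594 bp. Flicr, the lncRNA at Foxp3, was no member because its peaks lay within 2 kb of a protein-coding start.

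Members were also sorted by the closest protein-coding gene within 50 kb, with no claim that they act on it. Of the TCR and signaling genes, 9 had such neighbours, in 22 regions, with a median ratio of -0.03 over 17 compared. The lowest was Gm11579 (chr1:60781468-60782028), 35.4 kb from the start of the costimulatory receptor gene Cd28, with 305 and 124 (-0.72, -1.03 to -0.41). The nearby lincRNA 2310016D23Rik had a shared region at -990 bp from its start, with 127 and 88 (0.05, -0.36 to 0.45). At its start were control-only regions of 210 and 119 and a CREB-deficient-only region of 58, the last 2 of them 2 bp apart. Near Ptprc, the gene of CD45, Gm28556 had 753 and 497 (-0.02). The 5 regions of 2310001H17Rik, the lincRNA near the activation marker gene Cd69, had ratios from -0.04 to 0.19.

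Near Treg identity genes there were 3 members. Gm16008, 5.76 kb from Tnfrsf18, the gene of GITR, had 340 and 184 (-0.31, -0.57 to -0.04) in the region upstream of its start and 344 and 213 (-0.11, -0.36 to 0.14) within the gene. Gm16302, near the receptor gene Gpr83, had 51 and 43 (0.33, -0.29 to 0.95). At Gata3, the Th2 regulator, the antisense Gm13256 had 693 and 461 (-0.01, -0.18 to 0.16). Inside Tcf7, the gene of the naive T cell factor TCF-1, A630014C17Rik had 811 and 471 (-0.20, -0.37 to -0.04) and Gm26551 had 608 and 359 (-0.18, -0.37 to 0.01). Near genes of the CREB family and its targets there were 9 regions, with a median of -0.02 over 7 compared. The lowest of them was upstream of AC122252.2, near the phosphatase gene Dusp1, with 332 and 179 (-0.31, -0.58 to -0.04). Near Fosb, Gm26802 had 475 and 337 (0.09, -0.12 to 0.29).

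Peaks found in 1 list only were mostly weak. Of the 2029 control peaks at lncRNA promoters, 308 (15.2%, Wilson 95% interval 13.7 to 16.8) had no CREB-deficient counterpart. This was 16.4% over all control peaks, 9.86% at protein-coding promoters and 18.0% at distal regions. Of the 1882 CREB-deficient peaks, 92 (4.89%, 4.00 to 5.96) had no control counterpart, against 6.61% over all, 3.79% and 7.45%. The control-only members had a median pileup of 33 and the CREB-deficient-only members of 23. The share without a counterpart fell from 46.8% of control peaks with a pileup under 50 to 0.43% of those with 200 or more.

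**Figure D4:**
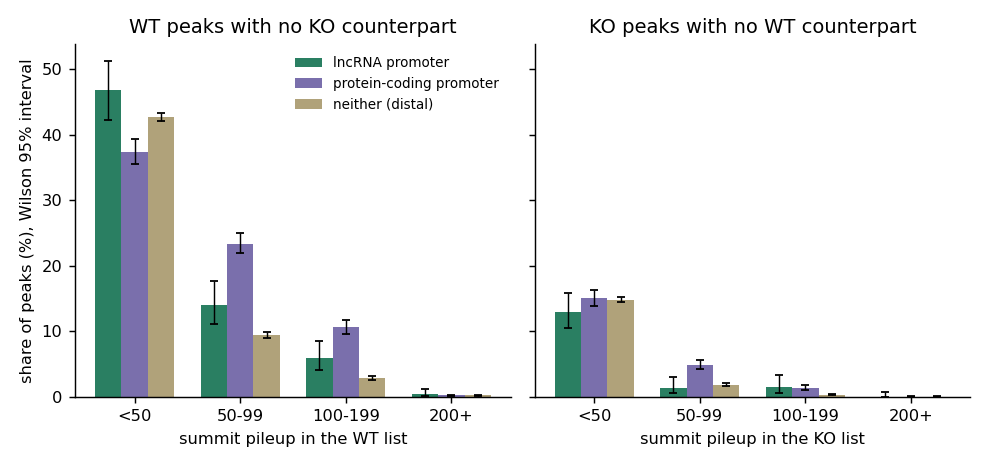
Share of peaks with no counterpart in the other list, by summit pileup, for lncRNA promoters, protein-coding promoters and distal regions, with Wilson 95% intervals. In the control (WT) list the share falls with pileup in all 3 classes, for lncRNA promoters from 46.8% to 0.43%, and in the CREB-deficient (KO) list that of lncRNA promoters is 1.40% and 1.43% in the middle bins.

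The order of the classes depended on the pileup and the list. Under 50, where 219 of the 308 control-only members lay, the share was 46.8% at lncRNA promoters, 37.4% at protein-coding promoters and 42.7% at distal regions. Between 50 and 100, 14.0% of control peaks at lncRNA promoters had no counterpart, against 23.4% at protein-coding promoters and 9.40% at distal regions. Between 100 and 200 these shares were 5.96%, 10.6% and 2.86%. In the CREB-deficient list they were 1.40%, 4.89% and 1.84% between 50 and 100. Many such peaks flanked a region of the other list. A CREB-deficient peak lay within 500 bp of 129 of the 308 control-only members (41.9%), and of the 29 with a pileup of at least 100, 20 had such a neighbour and 6 had none within 1000 bp. A control peak lay within 500 bp of 48 of the 92 CREB-deficient-only members (52.2%). These shares were not computed over all group-only peaks, so whether they are particular to lncRNA promoters was not tested.

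The strongest control-only member was at Gm26664, near the immediate early gene Ier2, with a pileup of 219 and a CREB-deficient region 89 bp away. At 2310016D23Rik near Cd28 a control-only region had 210, with the other list 277 bp away. In contrast, the region of Gm13546 in Cytip (chr2:58163591-58163711) had 166, and the closest CREB-deficient peak was 1396 bp away. The same lncRNA held the shared region with a ratio of -1.24. In the other direction, AC132455.1, antisense in Zfp36l2, the gene of an mRNA-decay factor, had a CREB-deficient-only region of 184, at 1267 bp from a control peak. The next was a region shared by 2210408F21Rik and Lncpint, with 146 and a gap of 1106 bp.

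The CRE and its half-site were less common at lncRNA than at protein-coding promoters and more common than at distal regions. Exact words were searched on both strands over the whole region. The CRE TGACGTCA was found in 45 lncRNA promoters (2.16%, 1.62 to 2.87), in 3.13% of protein-coding promoters and in 0.59% of distal regions. The half-site TGACG, which every CRE also holds, was found in 22.6%, 39.8% and 13.6%. The SP/KLF word GGGCGG was in 24.5%, 59.2% and 8.63%, and the ETS word CCGGAAG in 7.33%, 19.8% and 3.29%. For these words the lncRNA promoters lay between the other classes, as their length and GC content did. The NFY word CCAAT was in 34.2% of lncRNA and 43.3% of protein-coding promoters, but within 250 bp of the summit, where lengths are equal, it was in 45.4% and 43.7%. The AP-1 word was in 14.3%, 10.8% and 15.6%, the RUNX word TGTGGTT in 12.0%, 8.93% and 14.0%, and the CTCF word in 10.5%, 7.24% and 13.0%. For AP-1, RUNX and CTCF they also lay between, in the opposite order. The control palindromes TAGCGCTA and TGAGCTCA were in 0.10% and 1.87% of lncRNA promoters, and the latter was in 1.51% of protein-coding promoters and 1.25% of distal regions. The YY1 and NRF1 words were rare at lncRNA promoters, at 0.77% and 0.38%, against 3.76% and 1.74% at protein-coding promoters.

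**Figure D5:**
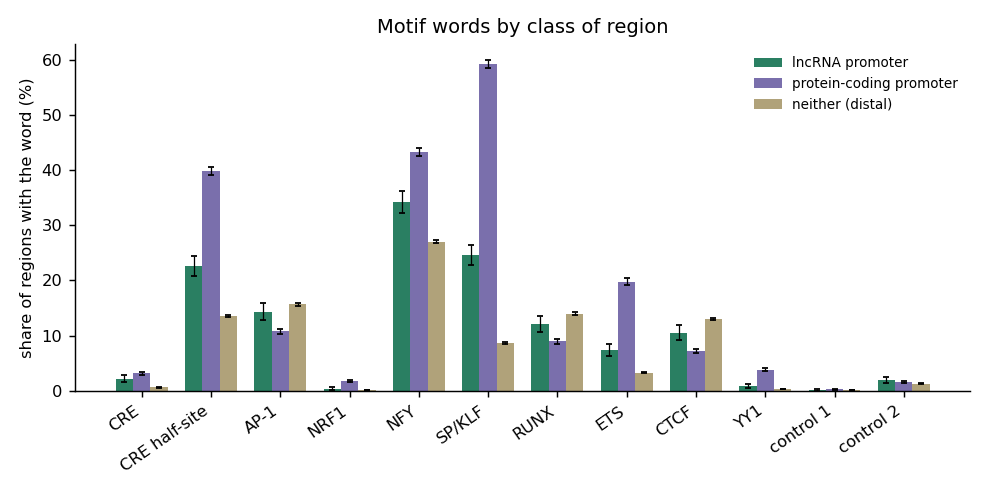
Share of lncRNA promoters, protein-coding promoters and distal regions that hold each motif word on either strand, with Wilson 95% intervals. Control 1 is TAGCGCTA and control 2 is TGAGCTCA, and the lncRNA promoters lie between the other classes for the CRE half-site (22.6%) and the SP/KLF word (24.5%).

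Promoters with a full CRE were stronger, and where their centred interval left out 0 it lay below 0. Those with a CRE had a median control pileup of 448, against 151 without. Their median ratio was -0.06 over 43 compared, against -0.03 for members without. With and without a CRE, the medians were -0.12 and -0.0043 at distal regions, and -0.01 and 0.02 at protein-coding promoters. A like gap at lncRNA promoters was seen for the RUNX word, with -0.06 and -0.02. For the control word TGAGCTCA the medians were 0.0024 and -0.03. Of 41 lncRNA promoters with a CRE and a pileup of at least 50, the interval lay below 0 in 11 (26.8%) and above 0 in 0. Over all shared lncRNA promoters with a control pileup from 200 upward, these shares were 14.1% and 6.96%. All these shares, and the side of 0 of the intervals below, depend on the centring, in which the median of 0.15 was subtracted from each ratio. None of the 43 was called by the 2-fold rule, which also called few of all shared regions (0.117% lower and 0.0829% higher). The lowest of the 6 strongest was Gm14321, with 1132 and 623 (-0.28, -0.42 to -0.14), followed by Gm2885 with 1391 and 829 (-0.17, -0.29 to -0.04) and Gm6410 (-0.14, -0.25 to -0.04). The interval of the region of Frmd8os and Neat1, given above, also lay below 0. In 6720427I07Rik, with 1315 and 909, the ratio was 0.05 (-0.08 to 0.17). Snhg15 (853 and 610), Snhg20 (600 and 410) and Pvt1 (201 and 139) had intervals that included 0.

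For the half-site, the median ratio was -0.06 in 435 lncRNA promoters with it and -0.02 in those without. The order was the same in 3 ranges of control pileup. Under 100 the medians were -0.06 with and 0.01 without the half-site, from 100 to 200 they were -0.13 and -0.05, and from 200 they were -0.05 and -0.02. Below 0 were 70.1% of the 87 members with a half-site in the middle range and 55.6% of the 320 without. The quartiles of single regions in the middle range were -0.31 and 0.03 with the half-site and -0.22 and 0.14 without. The same order was seen at distal regions, with medians of -0.08 and 0.01, and at protein-coding promoters, with 0.01 and 0.03.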

How the data were processed

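ATAC-seq of splenic Tregs was deposited by the authors as 1 MACS2 peak list per group. Per the labels and methods, 75 bp read pairs were trimmed with Trim Galore, aligned with Bowtie2, deduplicated and filtered with SAMtools. The sources used here give neither tool versions nor how libraries were joined. For each peak the authors deposited a score, a fold over background (ratio), the p-value and q-value as -log10, and the summit offset. The methods name mm9, but positions were read as GRCm38: of 10704 lncRNA start sites, 29.9% had a control peak within 1 kb, against 11.6% after a shift by 100 kb. The methods also name calling without a local background, whereas 32.6% and 29.6% of peaks had the lowest background and the rest a higher one.

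From fold and p the pileup at the summit was recovered, with a tolerance of 0.002 on the -log10 scale, for 99.94% of control and 99.97% of CREB-deficient peaks. Where a region held several peaks, the highest was used. Ratios have exact conditional binomial 95% intervals, and shares Wilson intervals. Regions with no overlap of at least 1 bp were group-only. The recovery and the call were tested on simulated data. Python 3.11.15, numpy 2.4.6, pandas 2.3.3, scipy 1.17.1, pysam 0.24.0 and samtools 1.23.1 were used.

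Named members were drawn from all members at the listed lncRNA genes, called members and the 6 lowest and highest ratios. They were also drawn from the 5 strongest group-only members per list, the 8 strongest members and the 6 strongest with a CRE. Neighbours of listed genes within 50 kb were a further source. Not all members of these sets are named. Members and lists were chosen with earlier results of these data known. Alternatives covered windows, start sites, centring, pileup and overlap rules. The B cell marker list is not reported here.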

Additional observations from a re-analysis of the deposited data

How the results depend on the processing

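With 1 list per group, no library could be left out and no spread between mice is known, so each value describes these lists. No paired analysis was possible because the files hold 1 list per group and no replicate columns. Shallow regions limit the comparison: under a pileup of 50 a missing counterpart can lie below the level at which peaks were called. Comprehensive start sites, the leaving out of chromosomes 1 and 15 and the rule with no fold were chosen after the data were seen.

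The control-only share of lncRNA promoters was 24.0% with at least 50% reciprocal overlap, 11.3% among peaks whose score gives a -log10 q of at least 5 and 4.43% with at least 10. The CREB-deficient-only share was 19.1%, 2.44% and 0.56%. The median ratio was 0.12 without the shift, a reversed sign, and -0.044 both when centred on protein-coding promoters and with a pileup of at least 50. The number lower was 6 with 3 counting SDs, 6 with summed pileups and 9 with no fold asked. The number higher was 4 with summed pileups and 1 with comprehensive start sites. The half-site share was 26.0% within 250 bp of the summit and 25.2% with a window of 500 bp. In these 16 values the cause was not tested. The other 41 values of these measures stayed within the interval, or for counts within 1.5 times, of the reported one, and the called promoters kept their direction and call wherever they remained members.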
